A study of Mus musculus with 6 samples.

Results

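The genes described here encode the nuclear subunits of the last 2 complexes of oxidative phosphorylation, cytochrome c oxidase (complex IV) and ATP synthase (complex V). They were taken by name from a table of 53110 mouse genes, as the genes whose symbol starts with Cox4, Cox5, Cox6, Cox7, Cox8 or Atp5. Of the 35 genes found, 17 encode subunits of cytochrome c oxidase or their tissue isoforms, 15 encode subunits of ATP synthase, and 3 (Cox7a2l, Atp5s and Atp5sl) share the name but are not counted among the subunits of either complex. A further 4 names with the ending -ps, which marks pseudogenes, were left out. The genes were compared by RNA-seq between wild-type (WT) and Setd5+/- neural stem cells (NSCs) of the mouse, both kept at 21% O2.

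Setd5+/- NSCs are also called mutant here. The NSCs came from the telencephalic cortex of mouse embryos and were grown as adherent cultures. One copy of Setd5, which encodes a protein with a SET domain, had been mutated with CRISPR-Cas9 in the Setd5+/- cells. The labels list 3 samples of each genotype, and the deposited column names place the Setd5+/- samples in clone A3, a name that is not among the clones named in the study's text. Those names give the 3 samples of a genotype the same index and lane, and the WT and Setd5+/- samples different lanes. Within a genotype the variance of the reads was 1.97 (WT) and 1.94 (Setd5+/-) times the mean. That is the size of sampling noise if both reads of a pair were counted. The samples of a genotype were therefore counted as parts of 1 library, and n is 1 per genotype. No SD is given, and genotype, clone, library and lane cannot be told apart.

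The values are normalized counts, the reads counted on a gene divided by a factor that corrects for the depth of the sample. Between 9995980 and 10004948 reads were counted on genes in the WT samples and between 7143309 and 7146147 in the Setd5+/- samples. Setd5 had 2498, 2749 and 2780 normalized counts in the WT samples against 2151, 1990 and 2055 in the mutant samples, which do not overlap. Its log2 fold change was −0.37 (95% counting interval −0.44 to −0.30).

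Markers of the neural cell types moved between the libraries in both directions. All 10 markers of neural stem cells had reads in both genotypes, with 6 lower and 4 higher past the threshold given below. Their summed level was 55864 to 56272 normalized counts in WT against 40714 to 41036 in mutant samples, but without Fabp7 (36015 against 11490) it was 19954 to 20111 against 29146 to 29652, with Notch1 at 2576 against 7859. The summed level of 9 neuronal markers was 1292 to 1373 against 346 to 379, without Gad1 564 to 585 against 246 to 279. Of 5 astrocyte markers, Slc1a3 held most of the level at 20983 against 21117, and the other 4 summed to 788 to 808 against 1237 to 1397, with Gfap at 17.1 against 263 and Aldh1l1 at 380 against 147. The summed level of 5 markers of the oligodendrocyte lineage was 11626 to 11818 against 6848 to 7192, most of it Olig2 (10646 against 6078), and without Olig2 it was 1056 to 1134 against 859 to 1037, with Sox10 at 298 against 1.59. In such bulk samples, fewer cells of a type and less RNA per cell cannot be told apart, and the part of these markers in the results was not tested.

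Cytochrome c oxidase takes electrons from cytochrome c, passes them to oxygen and pumps protons across the inner mitochondrial membrane. Its catalytic core is encoded by mitochondrial DNA, and the nuclear genes add small subunits around it, several of which exist as a form found in most tissues and a form typical of muscle, fat or testis. ATP synthase lets protons flow back through a ring of c subunits, and the turning of this ring drives ATP formation in the F1 head outside the membrane. A peripheral stalk holds the head in place, and small membrane subunits help to join the complexes in pairs.

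The c subunit shows how 3 members of the group can encode one protein. Atp5g1 (chr11:96068852-96075670, minus strand), Atp5g2 (chr15:102662864-102672352, minus strand) and Atp5g3 (chr2:73908447-73911326, minus strand; GRCm38, the build also called mm10) have different leader peptides that are cut off, and the mature protein they leave is the same. The last 90 coding bases before the stop codon are shown because they separate the 3 genes at the level of reads. Capitals mark the 24 positions at which the genes are not all alike.
Atp5g1: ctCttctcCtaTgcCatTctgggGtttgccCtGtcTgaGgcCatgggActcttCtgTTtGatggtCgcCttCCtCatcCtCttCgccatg
Atp5g2: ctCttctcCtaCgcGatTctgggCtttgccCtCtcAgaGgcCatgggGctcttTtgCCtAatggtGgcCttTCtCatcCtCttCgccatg
Atp5g3: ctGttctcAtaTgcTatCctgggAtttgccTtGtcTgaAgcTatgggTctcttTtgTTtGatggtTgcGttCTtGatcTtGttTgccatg
Over the 225 coding bases of the mature protein, Atp5g1 and Atp5g2 were alike at 84.9% of the positions, Atp5g1 and Atp5g3 at 80.0%, and Atp5g2 and Atp5g3 at 78.7%. The leaders were less alike, at 59.0% to 65.7% of the aligned bases.

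Of the 35 genes, 31 had a mean of at least 10 normalized counts over the 6 samples and were tested together with all other genes that passed this filter, 16266 in total. The test was limma on log2(normalized count + 1), on which scale all log2 fold changes of the tested genes are given, with Benjamini-Hochberg adjustment over all genes and a threshold of 0.05 for the adjusted p. Because the samples are parts of a library, the test compares the reads of 2 libraries and not the genotypes, and the 95% intervals cover counting error only. The libraries differed in 61.3% of all genes tested and in 24 of the 31 members. Lower past the threshold in Setd5+/- NSCs were 23 members, beside 30.9% of all genes tested. Only Cox6a2 was higher, beside 30.3% of all genes, and it met the filter only through the mutant samples, so its call rests partly on the filter. The other 7 genes did not pass. A fall of at least 1.5-fold was seen in 18 of the 31 genes and in 15.8% of all genes, and a rise of that size in 1 member and in 19.6% of all genes. The median log2 fold change was −0.60, beside −0.02 over all genes tested. The 4 genes under the filter were Cox4i2, Cox7a1, Cox7b2 and Cox8c, all of them tissue isoforms of cytochrome c oxidase.

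**Figure D1:**
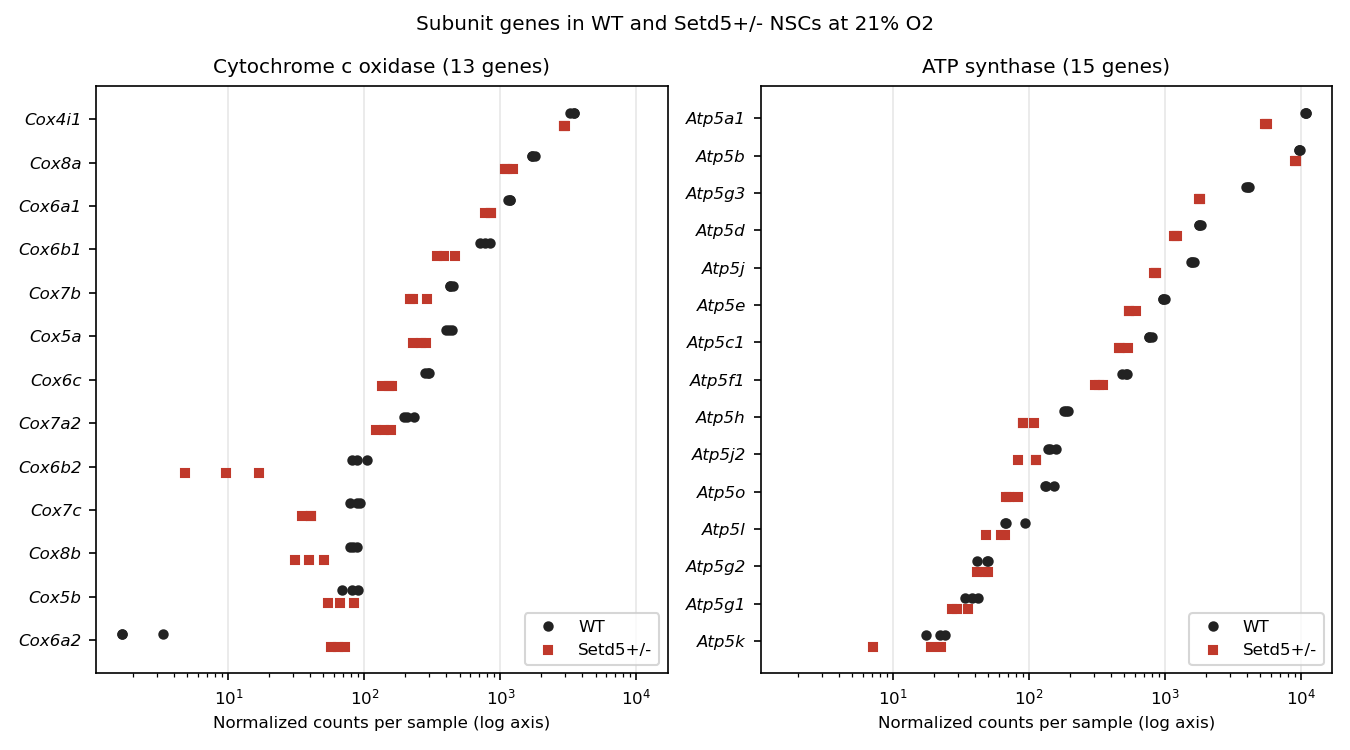
Normalized counts (log axis) of the tested subunit genes of cytochrome c oxidase (left) and ATP synthase (right) in each sample, with circles for the 3 WT and squares for the 3 Setd5+/- samples. Squares lie left of the circles for most genes, the pairs are close together for Cox4i1 and Atp5b, and Cox6a2 alone has its squares to the right.

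Most tested genes of both complexes were lower. Of 13 tested genes of cytochrome c oxidase, 11 were lower, 1 was higher and 1, Cox5b, did not pass, with a median log2 fold change of −0.71. Of 15 tested genes of ATP synthase, 11 were lower, none was higher and 4 (Atp5g1, Atp5g2, Atp5k and Atp5l) did not pass, with a median of −0.63. Added up over its genes, cytochrome c oxidase had 8781 normalized counts in WT against 6346 in mutant NSCs, and ATP synthase had 30956 and 20356.

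The difference between the medians of the complexes, cytochrome c oxidase minus ATP synthase, was −0.08, and it has no fixed sign in these data. It was 0.06 without Setd5+/- replicate 1 and 0.19 when genes with a near-identical copy in the genome were left out. No order of the 2 complexes can be read from these medians.

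The F1 head of ATP synthase showed an uneven change between its main subunits. Atp5a1 encodes the alpha subunit, and Atp5b (chr10:128083273-128090391, plus strand) the beta subunit that carries the catalytic sites, and the protein complex holds both in equal numbers. Atp5a1 had 10909, 10871 and 10657 normalized counts in the WT samples against 5453, 5574 and 5593 in the mutant samples. The groups lay far apart, and the log2 fold change was −0.96 (−1.0 to −0.93), with an adjusted p of 1.6e-25 in limma. Atp5b had 9806, 9615 and 9738 in WT against 9125, 9129 and 9217 in mutant samples. The Atp5b samples did not overlap either, but its log2 fold change was only −0.09 (−0.12 to −0.05, adjusted p 4.9e-05 in limma). The log2 fold change of Atp5a1 minus that of Atp5b was −0.88 (interval −0.93 to −0.83). Per kilobase of transcript, the pair stood at 4376 and 5073 normalized counts in WT and at 2242 and 4779 in Setd5+/- NSCs.

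The other genes of the F1 head and central stalk were lower too. Atp5c1, which encodes the gamma subunit that turns inside the head, went from 777 to 487 normalized counts (log2 fold change −0.68, −0.81 to −0.54). Atp5d, for the delta subunit, went from 1811 to 1199 (−0.59, −0.68 to −0.51), and Atp5e, for the epsilon subunit, from 981 to 568 (−0.79, −0.91 to −0.67). In all 5 genes of the head and central stalk the samples of the 2 genotypes did not overlap, which held in the lower direction for 32.9% of all genes tested.

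All 4 genes of the peripheral stalk were lower, with a median of −0.90. Atp5j, which encodes coupling factor F6, had 1644, 1596 and 1569 normalized counts in the WT samples against 858, 832 and 864 in the mutant samples. Its samples did not overlap, and its log2 fold change was −0.91 (−1.01 to −0.81). Atp5o, which encodes the subunit that gives the complex its sensitivity to oligomycin, had 153, 131 and 133 in WT against 71.5, 67.9 and 83.4 in mutant samples, a change of −0.90 (−1.23 to −0.56). Atp5h, for subunit d, fell by 0.96 on the log2 scale and Atp5f1, for subunit b, by 0.63.

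Atp5g3 had by far the most reads of the c subunit genes, and on the reads of the genes themselves it alone was lower past the threshold. It had 3979, 4112 and 4169 normalized counts in the WT samples against 1818, 1804 and 1774 in the mutant samples, which do not overlap. The log2 fold change was −1.18 (−1.25 to −1.12), with an adjusted p of 1.3e-22 in limma, the largest fall among the tested ATP synthase genes. Atp5g1 had 42.3, 33.9 and 38.1 in WT against 27.4, 35.7 and 29.8 in mutant samples. Atp5g2 had 49.8, 49.6 and 41.4 in WT against 47.7, 50.02 and 41.7 in mutant samples. The genotypes overlapped in both, and neither passed the threshold, with log2 fold changes of −0.29 (−0.84 to 0.25) and −0.01 (−0.48 to 0.45). The log2 fold change of Atp5g3 differed from that of Atp5g1 by −0.89 (−1.44 to −0.34) and from that of Atp5g2 by −1.17 (−1.64 to −0.70). Atp5g1 and Atp5g2 differed by −0.28 (−1.0 to 0.44). Per kilobase of transcript, Atp5g3 made up 97.1% of the summed c subunit genes in WT against 94.1% in mutant NSCs. These shares leave out a near-identical copy of Atp5g1, which had 681 normalized counts in WT against 420 in mutant NSCs. With reads that belong to Atp5g1 on that copy, the share of Atp5g3 would be lower. Atp5g2 has 2 copies that match it at 100% over 438 coding bases and had no reads. How reads that fit several places equally well were counted is not given in the sources used here. The part of this in the level of Atp5g2 and in the shares was not tested.

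Among the small membrane subunits, Atp5j2 (subunit f) went from 147 to 103 normalized counts, a log2 fold change of −0.52 (−0.81 to −0.22). Atp5k (subunit e) and Atp5l (subunit g) did not pass, at −0.49 (−1.22 to 0.23) and −0.35 (−0.75 to 0.04). Both had few reads on the gene itself, 77 and 276 in WT and 41 and 149 in Setd5+/- NSCs.

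**Figure D2:**
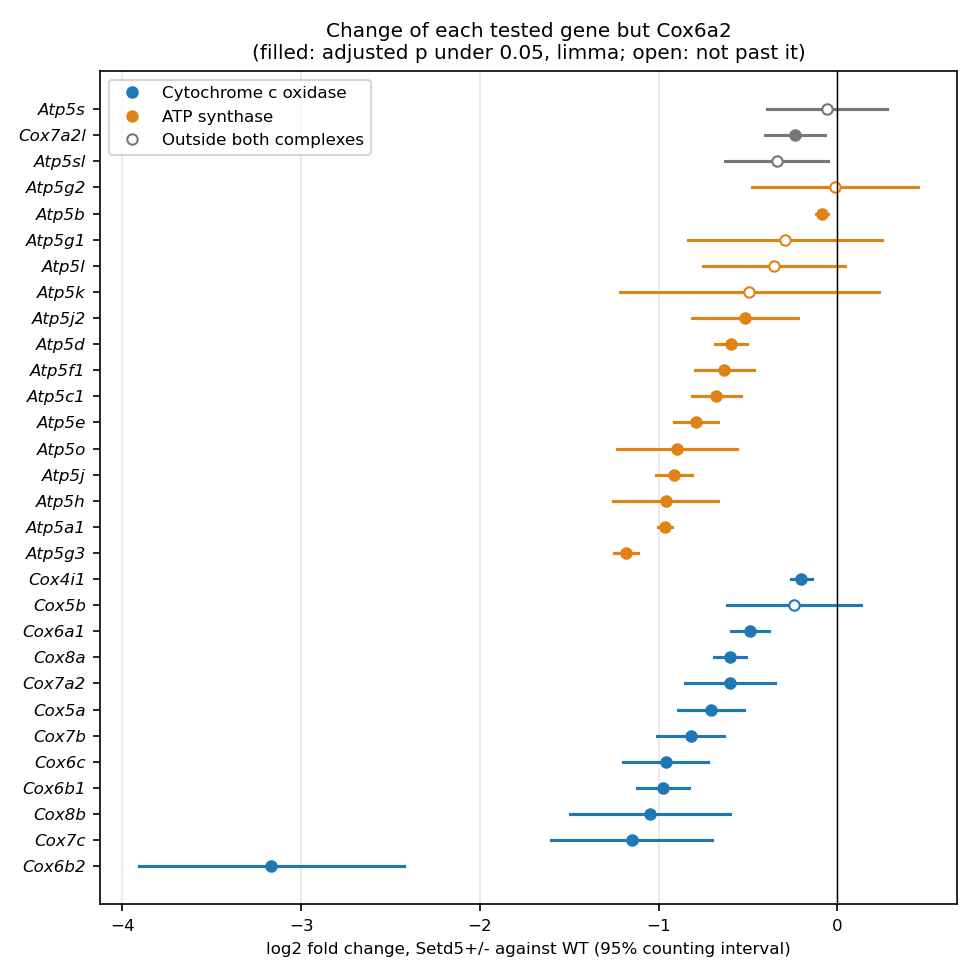
Log2 fold change of each tested gene except Cox6a2, Setd5+/- against WT, with 95% counting intervals as lines. Filled points passed an adjusted p of 0.05 in limma and open points did not, with cytochrome c oxidase in blue, ATP synthase in orange and the genes outside both in grey. Cox6b2 lies lowest at −3.17 and the intervals of Atp5b and Cox4i1 stay close to 0.

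In cytochrome c oxidase, 9 of the 10 ubiquitous or single genes were lower, with a median log2 fold change of −0.65, and Cox4i1 moved least among the 9. Cox4i1 encodes the largest nuclear subunit, the ubiquitous form of subunit IV. It had 3502, 3482 and 3252 normalized counts in the WT samples against 2992, 2953 and 2947 in the mutant samples. These do not overlap, and the log2 fold change was −0.20 (−0.26 to −0.14, adjusted p 1.6e-06 in limma). Cox6a1, the ubiquitous gene of its subunit, fell by 0.49 (interval −0.60 to −0.38), and the change of Cox4i1 was smaller by 0.29 (0.17 to 0.41).

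The other genes fell further. Cox7c, for a small subunit that spans the membrane, had 92.9, 88.5 and 78.7 normalized counts in WT against 34.6, 40.5 and 40.5 in mutant samples, without overlap, and its log2 fold change was −1.15 (−1.60 to −0.70). Cox6b1, for a subunit on the outer face near the site of cytochrome c, had 843, 774 and 706 in WT against 383, 343 and 460 in mutant samples, also without overlap. Its change was −0.98 (−1.12 to −0.83). Cox6c and Cox7b, both for small membrane subunits, changed by −0.96 and −0.82, and Cox5a, for a subunit on the matrix side, by −0.71. Cox8a, for the smallest subunit, went from 1733 to 1146 normalized counts (−0.60, −0.69 to −0.51), and Cox7a2 from 211 to 139 (−0.60, −0.85 to −0.35).

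Cox5b, for the subunit that binds zinc, had 90.4, 81.1 and 67.9 normalized counts in the WT samples against 83.4, 66.7 and 53.6 in the mutant samples. The genotypes overlapped, and the log2 fold change of −0.24 (−0.62 to 0.13) did not pass. It is the only member on chromosome 1 (chr1:36691449-36693681, plus strand), where the median was 0.53 over 1044 tested genes.

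The tissue isoforms went in different directions, and they are given per kilobase of transcript wherever one isoform is set against another. Cox6a2, known as the isoform of heart and skeletal muscle, had 3.32, 1.65 and 1.66 normalized counts in the WT samples against 71.5, 64.3 and 57.2 in the mutant samples. These came from 8 reads in WT against 162 in mutant NSCs, a ratio of 29.1-fold with a counting interval of 11.1 to 107. All mutant samples lay above all WT samples, as in 32.4% of all genes tested. Cox6a2 made up 0.160% of the summed Cox6a level in WT against 6.15% in mutant NSCs, so that Cox6a1 remained the main isoform at 2022 and 1440 normalized counts per kilobase, beside 3.25 and 94.6 for Cox6a2. Cox6a2 (chr7:128205435-128206387, minus strand) shares exon bases with Itgad on the other strand, which had no normalized counts in 5 of the 6 samples and 2.38 in Setd5+/- replicate 2.

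Cox6b2, the testis isoform, changed the other way. It had 81.3, 104 and 88.6 normalized counts in the WT samples against 16.7, 4.76 and 9.53 in the mutant samples, which do not overlap. The log2 fold change was −3.17 (−3.90 to −2.43, adjusted p 2.5e-09 in limma), the largest fall among the tested members. It differed from the log2 fold change of Cox6b1 by −2.19 (−2.94 to −1.44). Its share of the summed Cox6b level was 13.6% in WT against 3.32% in mutant NSCs.

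Cox8b, the isoform of muscle and brown fat, had 77.9, 81.9 and 87.8 normalized counts in WT against 50.1, 31.0 and 39.3 in mutant samples, without overlap. Its log2 fold change was −1.05 (−1.49 to −0.60), and the difference from Cox8a of −0.45 had an interval that just reached 0 (−0.90 to 0.01). Its share of the summed Cox8 level was 6.78% in WT against 5.07% in mutant NSCs. Cox7a1, the muscle isoform of its subunit, missed the filter and had 46 reads in WT against 18 in mutant NSCs, or 9.06% and 7.97% of the summed Cox7a level. The ratio of Setd5+/- to WT for Cox7a1 was 0.563 with a counting interval of 0.232 to 1.25.

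The remaining tissue isoforms were at or near 0. Cox4i2, the isoform of lung, had 1 read in WT and none in Setd5+/- NSCs. Cox7b2 and Cox8c, both known from testis, had none, and a count of 0 allows up to 1.66 normalized counts in WT against 2.38 in mutant NSCs (3 read pairs, counting error only). The coding bases of the isoforms of each pair were alike at 57.6% to 69.6% of the aligned positions, with no shared run longer than 14 bases.

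**Figure D3:**
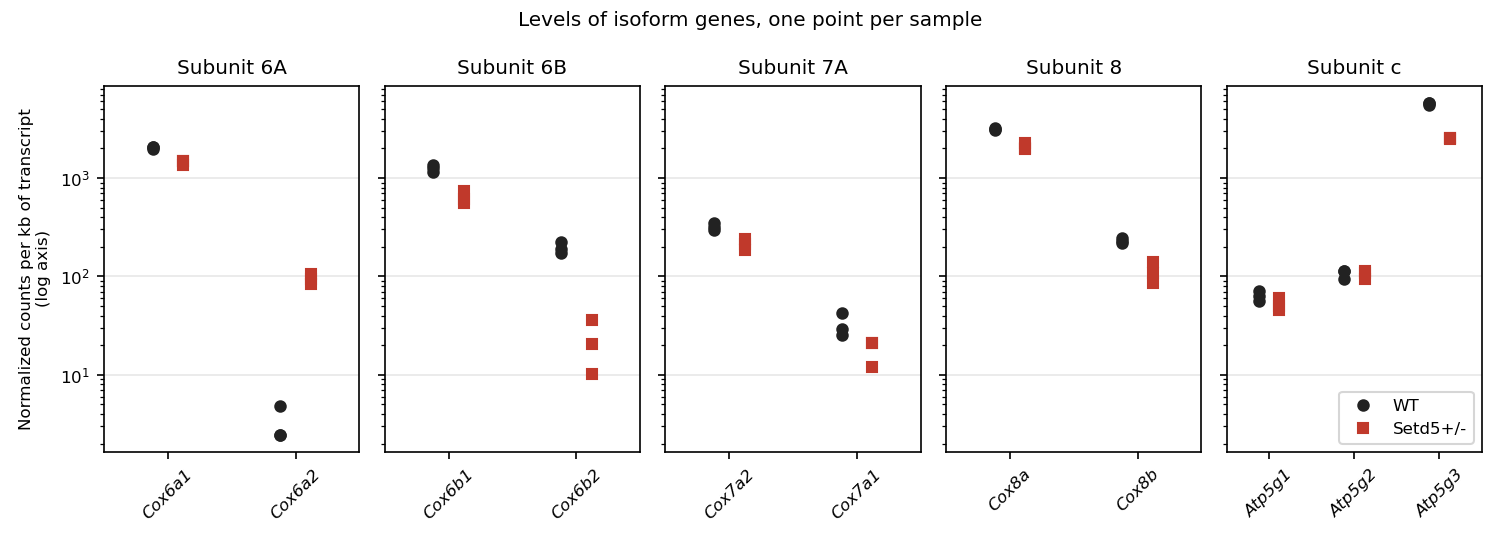
Normalized counts per kilobase of transcript (log axis) of the isoform genes of 5 subunits, with a circle for each WT and a square for each Setd5+/- sample. Cox6a2 is the one gene whose squares lie above its circles, and Atp5g1 and Atp5g2 overlap between the genotypes.

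Markers of the tissues after which these isoforms are named were read in the same samples. Of 15 markers of striated muscle, 9 had over 3 reads in WT against 8 in mutant NSCs, and their summed level was 221 to 223 normalized counts in WT against 91.8 to 110 in mutant samples. Ckm, the muscle creatine kinase, and Myog, a regulator of muscle cells, had no reads. Past the threshold, Actc1 (115 against 25.0), Myh6 (43.3 against 21.4) and Myh7 (23.2 against 4.76), for muscle actin and myosins, were lower, and Tnni3, for a cardiac troponin, was higher (5.80 against 25.0). Tnni3 met the filter only through the mutant samples and Myh7 only through the WT samples, so the calls of both rest partly on the filter. The level of 5 markers of brown fat was 40.6 to 63.7 in WT against 3.57 to 9.53 in mutant samples, and without Prdm16 (48.9 against no reads) it was 1.66 to 8.27 against 3.57 to 9.53. Ucp1, the defining gene of brown fat, had 0.828 normalized counts in WT and none in mutant NSCs. The level of 5 markers of testis germ cells was 52.2 to 58.0 in WT against 70.3 to 81.0 in mutant samples, most of it Sycp3, which did not pass (50.5 against 62.7), and Tnp1 had no reads. The part of these markers in the levels of Cox6a2, Cox6b2, Cox7a1 and Cox8b was not tested.

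Near-identical copies held more reads than the gene for 11 members in WT and for 10 in mutant NSCs, Atp5l being the difference. Such copies are mostly processed pseudogenes, which arose from the messenger RNA and so have no introns, and 13 of the 35 members have at least 1 whose sequence matches their coding bases at 95% or more over at least 100 bases. Bowtie2, with which the authors aligned the reads, does not split a read over an intron, so a read that crosses an exon junction can find its full match only in such a copy, and the part of this in the levels below was not tested. The stretches below are shown because they run across an exon junction of the gene, which lies after base 30, and through the copy with no break, and capitals mark where gene and copy differ. In Atp5o an intron of 1115 bases lies at the junction, in Atp5h one of 775 and in Cox7b one of 3708.
Atp5o (chr16:91931520-91931549 and chr16:91930375-91930404, minus strand): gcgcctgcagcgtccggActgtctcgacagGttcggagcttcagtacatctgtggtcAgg
Gm5436 (chr12:84258908-84258967, minus strand): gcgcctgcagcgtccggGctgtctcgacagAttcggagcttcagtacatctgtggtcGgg
Atp5h (chr11:115416853-115416882 and chr11:115416048-115416077, minus strand): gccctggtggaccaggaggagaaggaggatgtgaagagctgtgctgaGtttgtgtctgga
Gm10250 (chr15:5120815-5120874, minus strand): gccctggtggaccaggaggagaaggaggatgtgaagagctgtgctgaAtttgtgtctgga
Cox7b (chrX:106015841-106015870 and chrX:106019579-106019608, plus strand): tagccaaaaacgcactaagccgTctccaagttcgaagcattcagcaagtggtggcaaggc
Gm19503 (chr1:151520618-151520677, minus strand): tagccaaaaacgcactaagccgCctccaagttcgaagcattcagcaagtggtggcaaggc
Gene and copy differed at 3 of 60 bases for Atp5o and at 1 of 60 for each of the others.

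Of the summed reads on Atp5o and its copy Gm5436, 94.8% were counted on the copy in WT against 95.1% in mutant NSCs. The copy had 2515 normalized counts in WT against 1436 in mutant NSCs, a log2 ratio of −0.81 (−0.89 to −0.73), beside −0.90 for the gene. Atp5o also shares exon bases with another gene entry of the same name on the same strand, and the part of this in its level was not tested. For Cox7b, 72.4% and 71.9% of the reads lay on its copies, and the log2 ratio of the copies was −0.84 (−0.96 to −0.73). Atp5c1 had the smallest share on its copy, 14.7% in WT, and the 2 copies of Atp5g2 had no reads. A read on a copy may come from the gene or from the copy, and these cannot be told apart here. The genes with copies also had fewer reads per length than those without. Per kilobase of transcript the median was 163 normalized counts in WT over 12 subunit genes with a copy and 2329 over 13 without, tissue isoforms left out.

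With the reads of the copies added to the gene, the intervals of 11 of the 13 members lay below 0. Atp5g1 then had a log2 ratio of −0.67 (−0.81 to −0.53), Atp5k of −0.78 (−1.06 to −0.50) and Atp5l of −0.56 (−0.85 to −0.27), although none of these passed on the reads of the gene alone. The intervals of Cox5b and Atp5g2 included 0. For Cox5b the sum with its copy Gm11273, on chromosome 13, gave −0.03 (−0.16 to 0.10) at 648 and 633 normalized counts, and the copy alone gave −0.01 (−0.14 to 0.13). With these sums the c subunit genes stood at −1.18 for Atp5g3, −0.67 for Atp5g1 and −0.01 for Atp5g2, and their intervals did not overlap. For Atp5g2 the sum is the gene alone, since its 2 copies had no reads although they match its coding bases at 100%. Its value is therefore not corrected for copies as that of Atp5g1 is, and no order of these genes can be read from the sums.

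**Figure D4:**
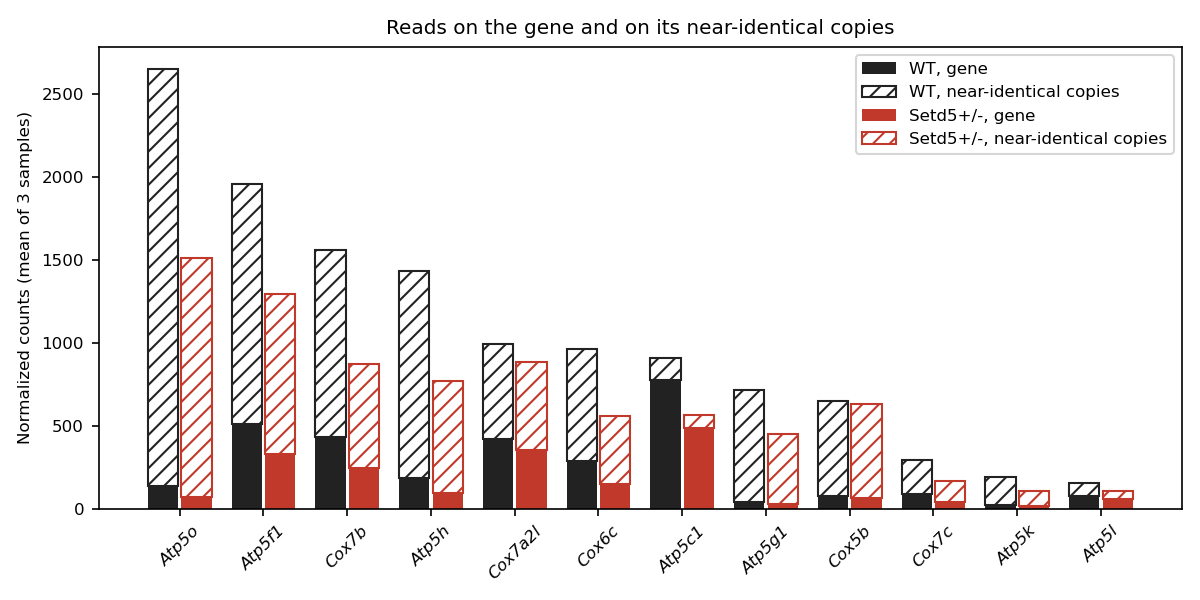
Mean normalized counts on 12 members with reads on near-identical copies (full part of each bar) and on the copies (hatched part), in WT (black) and Setd5+/- NSCs (red). The hatched part is the larger one in 11 of the 12 WT bars, all but that of Atp5c1, and the red bars are lower for every gene, with Cox5b close to equal.

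Of the 3 members that are not counted as subunits, Cox7a2l, which encodes a factor that joins complexes III and IV into supercomplexes, had 422, 404 and 431 normalized counts in the WT samples against 336, 351 and 379 in the mutant samples. Its log2 fold change was −0.24 (−0.40 to −0.07), and the samples did not overlap. Atp5s, for a coupling factor of ATP synthase, and Atp5sl, its relative, did not pass, at −0.06 (−0.39 to 0.28) and −0.34 (−0.63 to −0.05).

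Some members share exon bases with a gene on the other strand, and whether the counting used strand is not given in the sources used here. Atp5f1 shares them with Wdr77, which went from 595 to 279 normalized counts, a log2 fold change of −1.09. Cox6c shares them with Vps13b, which moved the other way, from 284 to 490. Atp5j shares them with Gabpa, which went from 921 to 778 normalized counts, and Cox4i1 with Emc8, at 765 and 758. Atp5a1 shares them with Haus1, at 114 and 141 normalized counts a small level beside its own.

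In windows of 300 bases around the start of transcription (250 before and 50 after it, RefSeq, GRCm38.p6), which were held here for 29 of the 35 members, motifs of factors known for mitochondrial genes were searched on both strands. The core of the NRF-1 motif, CGCATGCG, was found in 5 members (Atp5g2, Atp5j, Atp5k, Atp5l and Cox6a1) and in 1.87% of all 32851 windows. The ETS motif CCGGAAG, which GABP binds, was found in 8 members and in 8.86% of all windows, the Sp1 motif GGGCGG in 12 members and in 35.7%, and the YY1 motif AAGATGGCG in 3 members and in 1.40%. The CRE motif TGACGTCA was found in no member and in 1.79% of all windows. A member was counted if any of its windows held the motif, while the percentages count each window on its own, so the 2 are not strictly alike. A match describes these letters and no binding was measured.

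None of the 5 subunit genes of the 2 complexes that mitochondrial DNA encodes was lower past the threshold. mt-Co1, which encodes the catalytic subunit of cytochrome c oxidase, was higher, with 115313, 114667 and 115835 normalized counts in the WT samples against 126907, 125932 and 127062 in the mutant samples. The genotypes did not overlap, and the change was 0.14 on the log2 scale (interval 0.13 to 0.14). The other genes, mt-Co2, mt-Co3, mt-Atp6 and mt-Atp8, had means of 9.94 to 37.7 normalized counts and did not pass. These levels lay far below that of mt-Co1, and the reason was not tested. With so few reads their intervals were wide, as that of mt-Co2 from −0.66 to 0.84. Whether these genes fell can therefore not be read from the values.

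Genes of the neighbouring complexes of the chain were read beside the 30.9% of all genes tested that were lower and the 30.3% that were higher. Of 9 tested genes of complex III, 8 were lower and none higher (median −0.77), with Uqcrh, which helps cytochrome c to bind, at −1.03. Of 35 tested genes of complex I, 24 were lower and 3 higher (median −0.47), with the largest fall in Ndufa5 (−1.03). Both tested small subunits with other names were lower too, Ndufa4 at −0.66 and 2010107E04Rik at −1.03. Cycs, which encodes cytochrome c itself, went from 28.2 to 7.15 normalized counts, a log2 fold change of −2.49 (−3.39 to −1.59). That value is a mean of logs over 9.53, 0 and 11.9 in the mutant samples, so the 0 makes it larger than the means alone would. Cycs met the filter of 10 only through the WT samples, so its call rests partly on the filter. Atpif1, the inhibitor of ATP synthase, changed by −0.34.

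Assembly factors help to build the complexes without staying in them. The same background of 30.9% lower and 30.3% higher applies to them. Of 24 tested factors for cytochrome c oxidase, 12 were lower and 2 higher, with a median of −0.37. The largest fall among those with at least 100 normalized counts was that of Higd2a (−0.71), and the largest rise that of Cox20 (0.25). Of 5 tested factors for ATP synthase, 2 were lower, Fmc1 at −1.05 and Tmem242 at −0.21, a share of 40.0% near the background.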

How the data were processed

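The labels give 3 RNA-seq samples of WT and 3 of Setd5+/- NSCs. The authors used Trimmomatic on the reads, aligned them with Bowtie2 to mm10 and deposited normalized counts from DESeq2, with a log2 fold change and p-values of their own that were not used here. The counting program is not given in the sources used here. The deposited values are read here as text, since many had lost their decimal points. Each point was put back with the value of a single read, 0.827 to 0.829 normalized counts in WT samples and 1.19 in mutant ones, after which 100% of the values were whole reads within 0.01. The deposited mean placed a point in 1116 genes and equalled the mean of the restored values, unused, in 51322. In simulated data 100% of 72360 values were restored.

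Reads of samples of one genotype had a variance of 1.97 (WT) and 1.94 (Setd5+/-) times the mean, as when both reads of a pair are counted, and 1.96 was used for the counting intervals. The chi-square of the samples per degree of freedom, divided by 1.96, was 0.980 to 1.00 within a genotype and 32.4 to 32.7 between genotypes. A value near 1 within a genotype follows from this division, since 1.96 came from the same samples, and is no separate evidence. limma 3.58.1 in R 4.3.3 (lmFit, eBayes with trend) was run on log2(normalized count + 1). In simulated data of 16321 genes it called 139 of 186 changed genes, all in the right direction, and 8 unchanged ones. Positions, transcript lengths (a single principal transcript per gene) and copies are from GENCODE M21, with copies found by blastn 2.17.0. Each member was named; from other lists those with the largest fall and rise past the threshold at 100 or more normalized counts were named, and any other gene was chosen after its values were seen. One result under this rule is not reported here. Members, lists and tests were chosen with earlier results of these data known.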

Additional observations from a re-analysis of the deposited data

How the results depend on the processing

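Under pseudocounts of 0.5 and 5, no filter, upper quartile scaling and scaling to equal totals, 23 members were lower and 1 higher, as reported. Requiring also a 1.5-fold change left 5352 of 9963 genes and 18 lower members. With a mean of at least 50, no member was higher, because Cox6a2 falls under that filter, and the medians were −0.76 for cytochrome c oxidase and −0.73 for ATP synthase. The median of cytochrome c oxidase was −0.75 with equal totals and −0.65 both without tissue isoforms and with Cox7a2l, Atp5s and Atp5sl included. Without members that have near-identical copies the medians were −0.60 and −0.79, and their difference 0.19. Without each sample in turn, the median of cytochrome c oxidase ranged from −0.78 to −0.62, that of ATP synthase from −0.68 to −0.61, the difference from −0.13 to 0.060, the genes past the threshold from 9160 to 9553 and the lower members from 23 to 24. Atp5g2, not past the threshold in any of these, ranged from −0.10 to 0.061 and was above 0 without WT replicate 1 (0.03), WT replicate 2 (0.03) or Setd5+/- replicate 3 (0.061). Atp5sl passed without WT replicate 1 or Setd5+/- replicate 3. Adding the copies, chosen after seeing the data, put the intervals of Atp5g1, Atp5k and Atp5l below 0.

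Samples of the same number did not deviate together (correlations −0.01 to 0.00), so the numbers do not pair them. With the replicate number as a block, 9946 genes and 24 lower members passed, Atp5sl being the added one. The count-based tests planned as alternatives (edgeR with TMM, DESeq2) were not run on the restored reads, so no count-based result stands beside limma's. At this depth the intervals of Atp5k, Atp5g1, Atp5g2, Atp5l, Atp5s and Cox5b span 0. No sample measures the spread between cultures or clones.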
